A study of Mus musculus with 8 samples.

Results

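The platelet-derived growth factor (PDGF) ligands and receptors are described here as 7 genes, chosen by symbol among the 54532 entries of a table of gene counts. They were the 4 ligand genes *Pdgfa*, *Pdgfb*, *Pdgfc* and *Pdgfd* and the 3 receptor genes *Pdgfra*, *Pdgfrb* and *Pdgfrl*, and all 7 had enough counts to be tested. RNA sequencing (RNAseq) was done on primary lung fibroblasts (pFBs), which are cells grown out of lung tissue in culture, from female C57/black mice with no treatment. The 4 WT libraries came from wild type mice, and the 4 HOMO libraries from mice homozygous for a human IGFBP5 (hIGFBP5) transgene, placed by CRISPR/Cas9 knock-in, driven by the Ef1a1 promoter and expressed in all tissues. Cells of both genotypes were kept in medium with fetal bovine serum for a few passages. The age of the mice and the number of mice behind the libraries are not given in the sources used here. The p-values below therefore weigh the genotype difference against the spread between libraries, which may be technical. They may be too small if libraries share a mouse.

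PDGFs are secreted dimers that bind a pair of receptor tyrosine kinases on mesenchymal cells, where they drive proliferation, migration and matrix production. PDGF-A and PDGF-C chains bind PDGFRα, PDGF-D binds PDGFRβ, and PDGF-B binds both. In the lung, PDGFRα marks fibroblasts, among them those of the alveolar wall, and PDGFRβ marks pericytes and other mural cells as well as many fibroblasts.

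Promoter windows of 300 bases, from RefSeq on GRCm38.p6, were examined for 4 of the 7 genes, namely *Pdgfa*, *Pdgfc*, *Pdgfd* and *Pdgfra*. Windows of the other genes, among them the receptor gene that passed the test below, were not examined. Those of *Pdgfa*, the ligand gene that passed the test below, and of *Pdgfra*, which lies on the same chromosome and did not, are printed 5′ to 3′ along the gene, with matches to the GC box GGGCGG, on either strand, in capitals. *Pdgfa* has an upstream and a downstream window at chr5:138994895-138995194 and chr5:138994232-138994531 on the minus strand, and the window of *Pdgfra* is chr5:75152001-75152300 on the plus strand.
*Pdgfa* upstream window: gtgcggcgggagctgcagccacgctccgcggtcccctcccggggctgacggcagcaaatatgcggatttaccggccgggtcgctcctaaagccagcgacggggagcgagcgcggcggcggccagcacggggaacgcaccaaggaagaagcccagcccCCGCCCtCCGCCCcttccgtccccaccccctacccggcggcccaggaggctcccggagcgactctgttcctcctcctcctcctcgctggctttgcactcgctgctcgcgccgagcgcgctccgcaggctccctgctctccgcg
*Pdgfa* downstream window: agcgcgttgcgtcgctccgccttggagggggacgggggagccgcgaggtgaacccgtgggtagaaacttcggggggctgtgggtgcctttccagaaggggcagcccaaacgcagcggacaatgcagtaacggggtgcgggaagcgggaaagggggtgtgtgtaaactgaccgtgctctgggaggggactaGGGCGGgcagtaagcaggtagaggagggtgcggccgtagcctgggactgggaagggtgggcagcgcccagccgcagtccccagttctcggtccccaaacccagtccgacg
*Pdgfra* window: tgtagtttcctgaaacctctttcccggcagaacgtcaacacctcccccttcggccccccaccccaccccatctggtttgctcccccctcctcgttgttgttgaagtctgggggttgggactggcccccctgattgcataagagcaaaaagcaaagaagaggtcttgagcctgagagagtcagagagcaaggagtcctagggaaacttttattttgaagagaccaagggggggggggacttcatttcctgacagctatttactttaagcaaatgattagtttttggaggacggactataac
The upstream *Pdgfa* window held 37 CpG dinucleotides at a GC content of 73.3% and 2 GC boxes side by side. The downstream one held 24 CpG dinucleotides at 67% and 1 GC box, and the *Pdgfra* window held 5 at 51% and no GC box. Over 32851 promoter windows the median GC content was 52.7%, and 35.7% had at least 1 GC box. No match to GCGTGGGCG, the site of the early growth response factors, lay in these windows on either strand, as in all but 0.612% of promoters. The windows of *Pdgfc* and *Pdgfd* had GC contents of 55% and 56.7%, and that of *Pdgfd* held the TATA box letters TATAAA, which 13.6% of promoters had on either strand. These matches describe the letters and not the binding of a factor.

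The libraries held 17236521 to 29028769 counts in WT and 19009027 to 31987790 in HOMO, so that 3 counts corresponded to 0.0938 to 0.174 CPM, the count scaled by library size. Some libraries were close to each other. The pair WT1 and WT2 differed by a biological coefficient of variation of 7.63%, the pair HOMO1 and HOMO2 by 4.71% and the pair HOMO3 and HOMO4 by 5.07%, all above sampling noise, whereas other pairs differed by 45.1% to 54.9% in WT and 29.6% to 31.4% in HOMO. WT3 and WT4 had no such partner. The study speaks of the HOMO libraries as coming from different mice, but no source used here ties each library to a mouse or a culture. With each pair summed to 1 library, 0 of 16130 genes passed edgeR's adjusted test, while 2057 had an unadjusted p under 0.05. For mouse *Igfbp5* the counts were 130, 225, 7130 and 112 in the WT libraries and 24, 37, 37 and 57 in the HOMO libraries. The size of its fitted log2 fold change of −5.97 (SE 1.66, edgeR adjusted p = 0.0469) thus rested largely on WT3, while the other WT counts also exceeded every HOMO count. No entry for the human gene was among the rows, and the transgene was not analysed here.

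The comparison of HOMO with WT addressed which transcripts differed between fibroblasts that carry the transgene and those that do not. *Pdgfrb* and *Pdgfa* were downregulated in HOMO pFBs, and none of the other 5 genes passed the test. A gene was called a differentially expressed gene (DEG) where edgeR's quasi-likelihood test gave an adjusted p under 0.05 over all 14150 genes tested and the log2 fold change exceeded 0.6 in size. By this rule 2 of the 7 PDGF genes were called, both lower, against 6.18% of all genes called lower and 12.1% called in either direction. The same 2 genes had no overlap between genotypes, which 13.4% of all genes showed in the lower direction, 14% in the higher and 27.3% in either. The count of 2 was also found with RLE factors, upper-quartile factors, robust dispersion, DESeq2, no filter on low counts and CPM above 1 in at least 4 libraries, under which 12.3%, 12.2%, 12%, 16.5%, 5.28% and 13% of all genes were called. It was 2 without WT1 or WT2 (9.75% and 8.29% of all genes), 3 without WT4 (12.8%) and 4 without WT3 (15%). It was 0 without HOMO1, HOMO2 or HOMO3 (3.52%, 3.56% and 7.11%) and 1 without HOMO4 (6.72%). With limma-voom and quality weights 5 were called against 25.3% of all genes, and with a replicate block 1 against 6.69%. The median log2 fold change was 0.12 over the 7 genes and −0.04 over all genes tested. In bulk RNA, fewer cells of a type and less RNA per cell cannot be told apart.

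**Figure D1:**
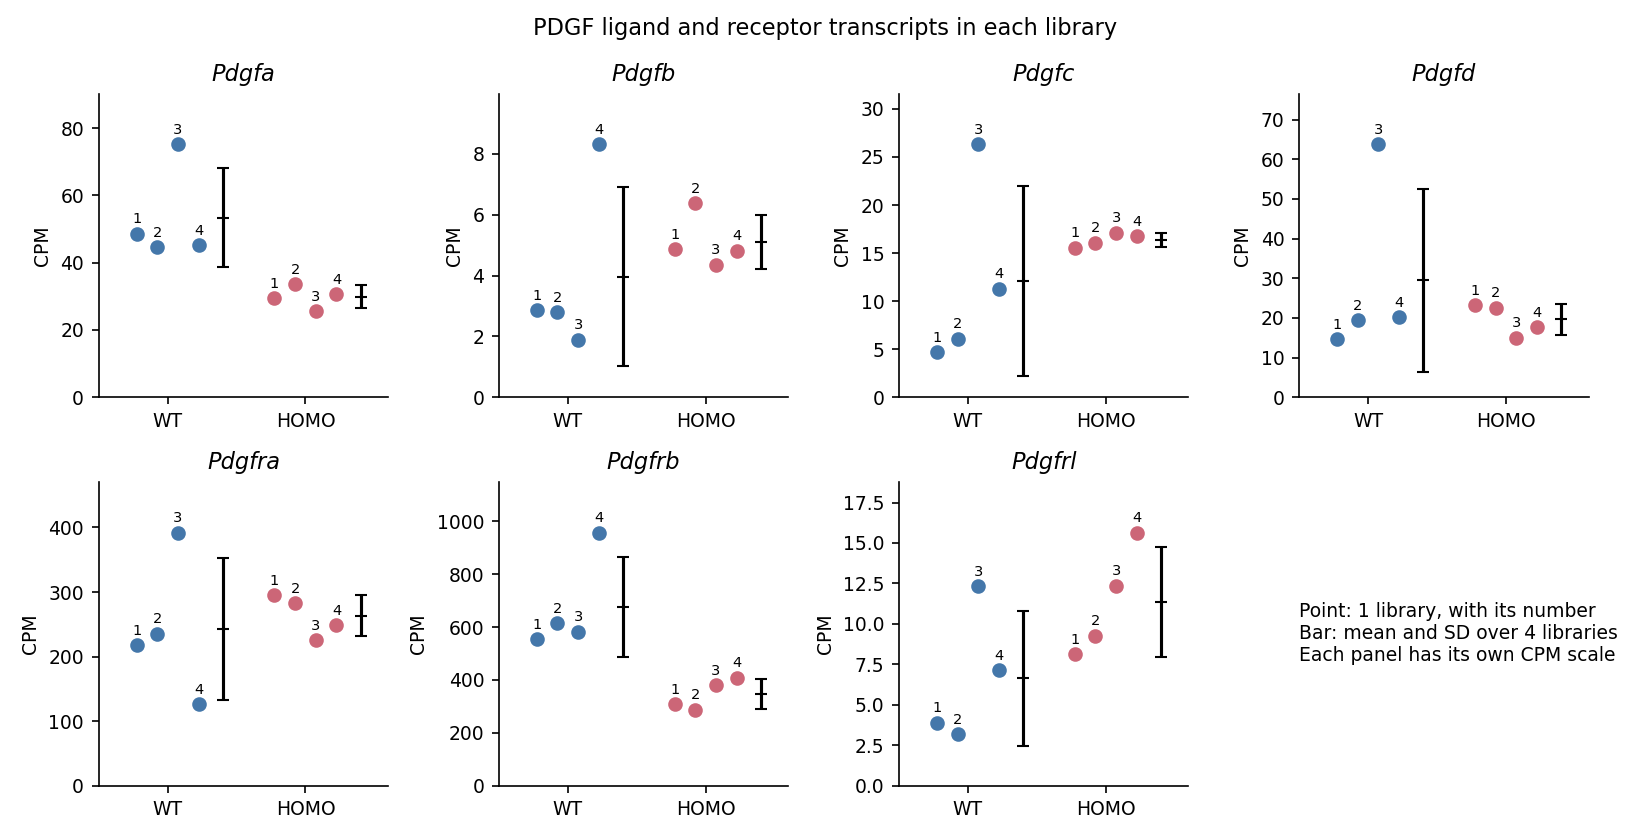
Level of each PDGF gene in each library, in CPM, with WT and HOMO as separate groups and bars for the mean and SD (n = 4). *Pdgfrb* and *Pdgfa* are the genes whose 4 HOMO libraries all sit below the 4 WT libraries, and WT3 or WT4 is the highest WT library in all 7 panels.

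Among the receptors, *Pdgfrb* encodes PDGFRβ, the receptor tyrosine kinase for PDGF-B and PDGF-D. In GENCODE M21 on GRCm38, from which all gene positions are given, it spans chr18:61045150-61085061 on the plus strand, with 5478 exonic bases, none shared with another gene. Its level was 554, 614, 583 and 958 CPM in WT1 to WT4 and 309, 288, 381 and 409 CPM in HOMO1 to HOMO4. Every HOMO library lay below every WT library, and WT4 was well above the other three WT libraries. The mean fell from 677 ± 189 CPM to 347 ± 57.6 CPM (n = 4, SD), and the log2 fold change was −0.97 (SE 0.22, 95% interval −1.46 to −0.47, edgeR adjusted p = 0.0251). Without WT4 the fall was smaller and the call stayed (−0.75, edgeR adjusted p = 0.0248). The call was lost without HOMO1, HOMO2 or HOMO3, at edgeR adjusted p-values of 0.0929, 0.0928 and 0.0545, and with the close pairs summed (log2 fold change −1.03, edgeR adjusted p = 0.373). Genes on chromosome 18 had a median log2 fold change of −0.31 over 377 genes, and *Pdgfrb* lay 0.65 below that median.

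*Pdgfra* encodes PDGFRα, the receptor bound by PDGF-A, PDGF-B and PDGF-C. It spans chr5:75152292-75198215 on the plus strand with 10024 exonic bases, of which 6.21% are shared with small genes of the opposite strand that had few or no counts. The libraries gave 217, 236, 392 and 127 CPM in WT1 to WT4 and 296, 283, 226 and 248 CPM in HOMO1 to HOMO4. WT3 was the highest and WT4 the lowest of all 8, so the HOMO libraries lay inside the WT range. The means were 243 ± 110 CPM and 263 ± 31.97 CPM, and the log2 fold change of 0.12 (SE 0.30, edgeR adjusted p = 0.824) had a 95% interval from −0.57 to 0.80, which reached past the DEG threshold on the higher side only. Without WT4 the sign turned, at −0.10 (edgeR adjusted p = 0.786).

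*Pdgfrl* encodes a PDGF receptor-like protein that resembles the outer part of the receptors and has no kinase domain. It spans chr8:40926212-40990785 on the plus strand with 3126 exonic bases. The levels were 3.88, 3.17, 12.3 and 7.12 CPM in WT and 8.11, 9.26, 12.4 and 15.6 CPM in HOMO, in library order. WT1 and WT2 were the lowest libraries, WT4 lay just under HOMO1, and WT3 reached into the HOMO range. The means of 6.63 ± 4.18 CPM and 11.3 ± 3.38 CPM gave a log2 fold change of 0.78 (SE 0.44, 95% interval −0.22 to 1.77, edgeR adjusted p = 0.256). Without WT3 the value was 1.26 and passed the threshold (edgeR adjusted p = 0.0475). Genes on chromosome 8 had a median log2 fold change of 0.37 over 790 genes, and *Pdgfrl* lay 0.40 above it.

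Among the ligands, *Pdgfa* encodes the PDGF-A chain, which the cell cuts from its precursor before secretion. It spans chr5:138976014-138997370 on the minus strand with 3119 exonic bases. The levels were 48.6, 44.5, 75.2 and 45.1 CPM in WT1 to WT4 and 29.5, 33.6, 25.5 and 30.7 CPM in HOMO1 to HOMO4. All HOMO libraries lay below all WT libraries, and WT3 was the high library of its group. The means were 53.4 ± 14.7 CPM and 29.8 ± 3.38 CPM, with a log2 fold change of −0.84 (SE 0.20, 95% interval −1.29 to −0.39, edgeR adjusted p = 0.0296). Without WT3 the fall was smaller and the call stayed (−0.63, edgeR adjusted p = 0.0139). The call was lost when any 1 of the 4 HOMO libraries was left out, at edgeR adjusted p-values from 0.0688 to 0.0951, and with the close pairs summed (−0.87, edgeR adjusted p = 0.376). Of the exonic bases, 26.1% are shared with the antisense gene *6330403L08Rik*, and whether counting used the strand is not given in the sources used here, so reads of the pair may not be separable. The antisense gene had 118, 170, 169 and 804 counts in WT and 187, 291, 159 and 174 in HOMO, against 863, 1038, 1311 and 1165 for *Pdgfa* in WT and 661, 1112, 503 and 612 in HOMO. Its high library was WT4, where *Pdgfa* was near its WT1 and WT2 levels.

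*Pdgfb* encodes the PDGF-B chain, which pairs with itself or with PDGF-A and binds both receptors. It spans chr15:79995874-80014977 on the minus strand with 4161 exonic bases. Only 33 to 215 counts fell on it in a library, which corresponded to 2.87, 2.79, 1.89 and 8.32 CPM in WT1 to WT4 and 4.86, 6.38, 4.36 and 4.81 CPM in HOMO1 to HOMO4. WT4 was above and the other WT libraries were below all HOMO libraries. The log2 fold change was 0.36 (SE 0.45, 95% interval −0.67 to 1.39, edgeR adjusted p = 0.620), and without WT4 it was 1.02 and passed the threshold (edgeR adjusted p = 0.0449).

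*Pdgfc* and *Pdgfd* encode ligands that are secreted in a latent form and become active when proteases outside the cell remove their CUB domains. *Pdgfc* spans chr3:81036416-81214040 on the plus strand with 5089 exonic bases, and *Pdgfd* spans chr9:6168584-6378850 on the plus strand with 3154. *Pdgfc* was at 4.67, 6.09, 26.3 and 11.3 CPM in WT1 to WT4 and at 15.6, 16.1, 17.1 and 16.7 CPM in HOMO1 to HOMO4. The HOMO libraries were close together, WT1, WT2 and WT4 lay below them, and WT3 lay above. Its log2 fold change was 0.44 (SE 0.49, 95% interval −0.67 to 1.55, edgeR adjusted p = 0.573), and 1.15 without WT3, where it passed the threshold (edgeR adjusted p = 0.0356). *Pdgfd* was at 14.6, 19.3, 63.8 and 20.1 CPM in WT1 to WT4 and at 23.2, 22.5, 15.0 and 17.6 CPM in HOMO1 to HOMO4. Apart from WT3, which was far above every other library, the genotypes overlapped. The log2 fold change of −0.59 (SE 0.45, 95% interval −1.61 to 0.44, edgeR adjusted p = 0.402) turned to 0.12 without WT3 (edgeR adjusted p = 0.715).

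**Figure D2:**
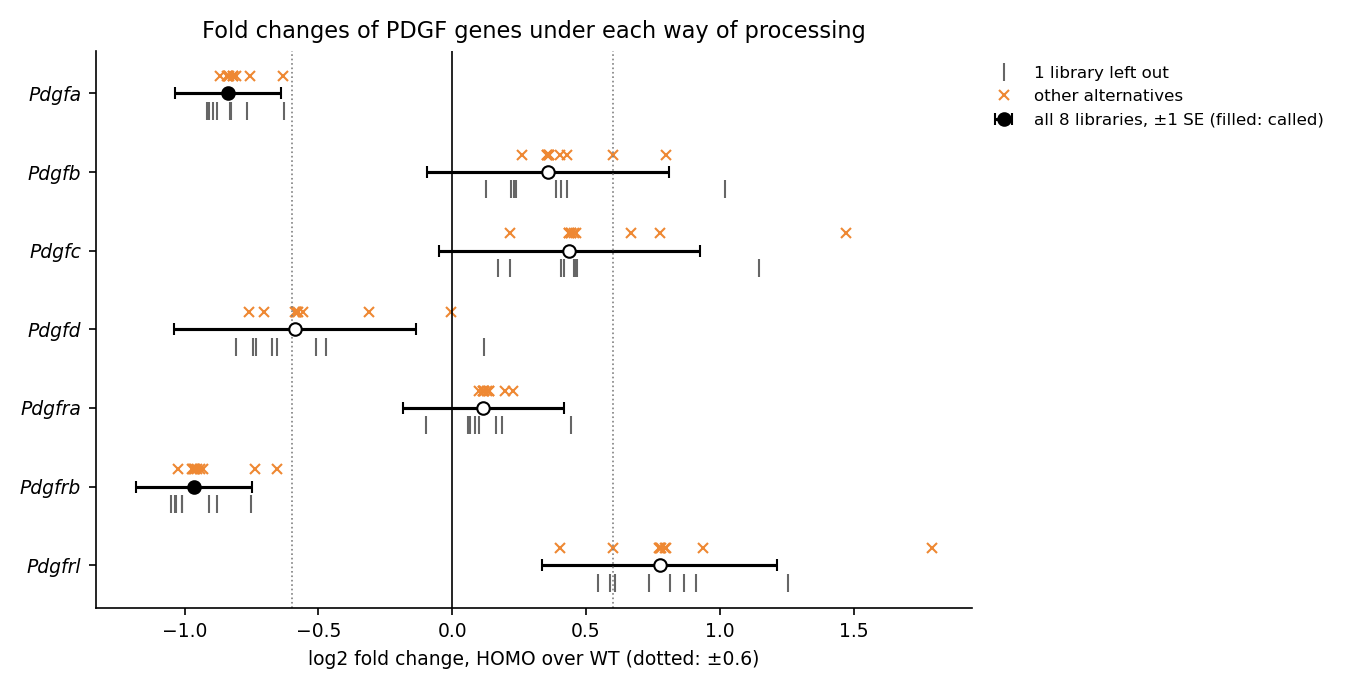
Log2 fold change of each PDGF gene, HOMO over WT, from all 8 libraries with bars of ±1 SE (points, filled where called), with 1 library left out (ticks) and under the other alternatives of processing (crosses). All values of *Pdgfrb* and *Pdgfa* lie below −0.6, whereas those of *Pdgfc* and *Pdgfrl* reach 1.47 and 1.79 under one alternative and that of *Pdgfd* turns to 0.12 without WT3.

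The PDGF genes, like most genes tested, varied more among WT than among HOMO libraries. The highest WT library exceeded the lowest by a factor of 5.64 for *Pdgfc*, 4.40 for *Pdgfb*, 4.36 for *Pdgfd*, 3.89 for *Pdgfrl* and 3.10 for *Pdgfra*, and by 1.73 and 1.69 for *Pdgfrb* and *Pdgfa*. The corresponding factors in HOMO ran from 1.10 for *Pdgfc* to 1.93 for *Pdgfrl*, and the WT factor was the larger for 7 of 7 genes, as it was for 82.9% of all genes tested. WT3 held the highest value of all 8 libraries for 4 genes and WT4 for 2. All 4 HOMO libraries belong to close pairs, whereas WT3 and WT4 do not. The biological coefficients of variation that edgeR fitted were 23.6% for *Pdgfa* and 24.3% for *Pdgfrb*, below the median of 29.2% over all genes tested. For *Pdgfra* it was 31.7%, and for the other 4 genes it ran from 45.8% to 49.7%.

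Levels between genes were compared per kilobase of exon, as CPM per kb. *Pdgfrb* stood highest, with means of 124 in WT and 63.3 in HOMO, followed by *Pdgfra* with 24.2 and 26.3, and *Pdgfa* with 17.1 and 9.56 CPM per kb. Then came *Pdgfd* with 9.34 and 6.21, and *Pdgfc*, *Pdgfrl* and *Pdgfb* were the lowest, at 2.38, 2.12 and 0.954 in WT and 3.22, 3.63 and 1.23 in HOMO. Among all genes tested, *Pdgfrb* exceeded 96.8% per kb and *Pdgfb* 20.3%. In WT, the ranges of *Pdgfrb* and *Pdgfra* did not overlap, and all the neighbours below them in this order did. In HOMO, neighbours overlapped between *Pdgfd* and *Pdgfrl* and between *Pdgfrl* and *Pdgfc*.

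The make-up of the receptor and ligand transcripts is given as a description, with no test. The ratio of *Pdgfra* to *Pdgfrb*, on the CPM per kb scale, was 0.215, 0.210, 0.368 and 0.0723 in WT1 to WT4 and 0.523, 0.537, 0.324 and 0.332 in HOMO1 to HOMO4. It was lower in WT1, WT2 and WT4 than in all HOMO libraries, and WT3 fell between the close HOMO pairs. The 4 ligands summed to 21.8, 22.3, 49.98 and 25.1 CPM per kb in WT and to 21.0, 22.6, 17.3 and 19.9 in HOMO, so that WT3 alone stood apart. *Pdgfa* made up 48.3% to 71.4% of this sum in WT and 44.9% to 49.5% in HOMO. The share of *Pdgfc* was 4.21% to 10.4% in WT and 13.95% to 19.4% in HOMO, with no overlap. *Pdgfd* held 21.3% to 40.5% in WT and 27.4% to 35.0% in HOMO, and *Pdgfb* 0.911% to 7.98% and 5.55% to 6.78%.

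**Figure D3:**
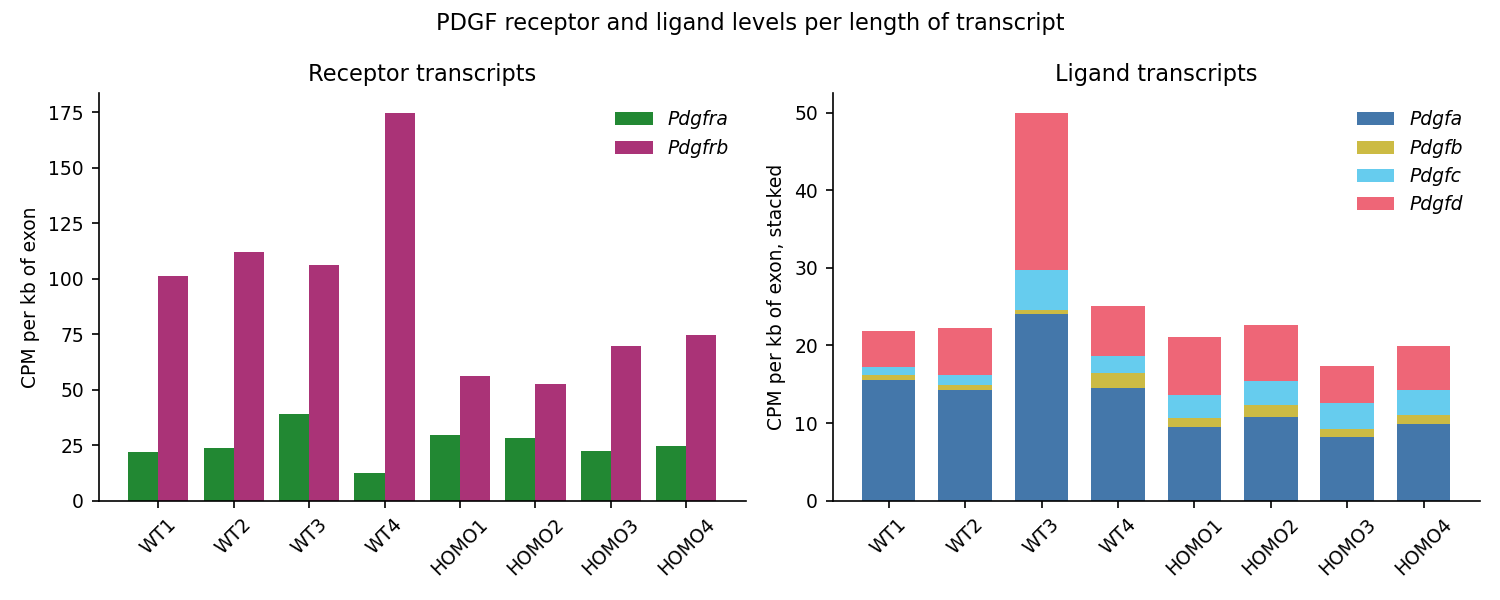
Receptor levels and ligand levels in each library, in CPM per kb of exon. *Pdgfrb* is the tallest receptor bar in every library and shorter in HOMO than in WT, *Pdgfa* is the largest part of each stacked ligand bar, and the ligand bars of WT3 sum to 49.98.

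Marker lists of lung cell types were set beside these genes, because *Pdgfrb* and *Pdgfra* are also expressed by particular cell types. The fibroblast markers summed to 18065 to 24715 CPM in WT and 18686 to 31472 CPM in HOMO, and 1 of 8 was called, *Vim*, the intermediate filament vimentin (log2 fold change −0.65, edgeR adjusted p = 0.043). The list was mixed, with 3 positive and 5 negative log2 fold changes. *Col1a1* was higher in every HOMO library and did not pass (0.82, edgeR adjusted p = 0.0985), and neither did *Thy1* (−1.62, edgeR adjusted p = 0.116). The pericyte markers summed to 53.3, 57.5, 56.6 and 86.2 CPM in WT1 to WT4 and 63.6, 57.4, 22.1 and 25.5 CPM in HOMO1 to HOMO4. *Rgs5* and *Ndufa4l2*, 2 of the 4 pericyte markers tested among 8, were called lower in HOMO, and *Higd1b* had 3 or fewer counts in every library. The sum was highest in WT4, as was *Pdgfrb*. *Notch3* made up most of the pericyte sum in WT1, WT2 and all HOMO libraries, at 46.0 and 50.4 CPM in WT1 and WT2 and 18.3 to 62.0 CPM in HOMO. In WT3 and WT4 *Notch3* was at 16.8 and 26.7 CPM. *Rgs5* was at 0.689 to 36.1 CPM in WT, highest in WT4, and at 0 to 0.659 CPM in HOMO, and *Ndufa4l2* was at 0.956 to 35.8 and 0 to 0.178 CPM. *Rgs5* and *Ndufa4l2* were thus lower in all HOMO libraries, although for *Rgs5* WT3 was close to HOMO3. The other pericyte markers were mixed. *Notch3* and *Cspg4* overlapped between genotypes (log2 fold change 0.18 and −0.31), and *Kcnj8* had a mean of 0.121 CPM in WT and 0.463 CPM in HOMO. *Cox4i2* and *Abcc9*, which were not tested, had means of 0.430 and 0.236 CPM in WT and 0.200 and 0.053 CPM in HOMO. The smooth muscle markers summed to 860 to 2925 CPM in WT and 211 to 1560 CPM in HOMO. Of these 7 markers, 0 were called and 0 had an unadjusted edgeR p under 0.05, against 4573 of the 14150 genes tested. All 7 had a negative log2 fold change, with a median of −1.08.

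*Pdgfa* and *Pdgfra* were read beside the alveolar fibroblast markers, which summed to 197 to 694 CPM in WT and 33.2 to 78.4 CPM in HOMO. Of the highest sum, in WT3, 605 CPM were *Itga8*, while *Tcf21* and *Npnt* were at their WT lowest there, at 5.39 and 63.8 CPM against 47.7 to 57.1 and 74.6 to 279 CPM in the other WT libraries. Of the 8 alveolar markers 3 were tested and *Npnt* was called lower, while *Slc7a10* and *Fgfr4* had 3 or fewer counts in every library. The macrophage markers summed to 110, 141, 1871 and 1098 CPM in WT1 to WT4 and 23.4 to 156 CPM in HOMO. The macrophage sum was thus highest in WT3 and WT4, which also held the highest values of 4 and 2 PDGF genes. Of the 6 macrophage markers, 0 were called and 4 had an unadjusted edgeR p under 0.05, against 4573 of the 14150 genes tested. All 6 had a negative log2 fold change, with a median of −2.35. Endothelial markers summed to 1.33 to 4.34 CPM in WT and 1.43 to 4.36 CPM in HOMO, with *Cldn5*, *Emcn* and *Tie1* at 3 or fewer counts throughout and 0 of the 1 tested called. The adventitial markers (53.9 to 152 and 73.2 to 135 CPM, *Cd34* called higher among 7) and the mesothelial markers (51.8 to 155 and 92.2 to 131 CPM, *Wt1* called higher among 5) overlapped between genotypes. The adventitial list had 3 positive and 4 negative log2 fold changes, and the mesothelial list 3 and 2. Adventitial *Sfrp4* and *Ackr3* were at −1.36 and −1.14, and mesothelial *Krt19* and *Msln* at −3.06 and −0.52, none of them called. The epithelial sum (0.0574 to 0.542 and 1.34 to 14.4 CPM) was higher in every HOMO library, with *Cdh1* called higher as the 1 tested of 6. Its members differed, and *Epcam* was at 0 CPM in HOMO1 and HOMO3. The megakaryocyte and platelet sum (6.03 to 11.3 and 18.5 to 20.6 CPM) was also higher in every HOMO library. It was mostly *Itga2b*, called higher among 2 tested of 5, at 4.42 to 10.2 CPM in WT and 16.0 to 19.9 CPM in HOMO. *Gp1ba* overlapped between genotypes, and *Pf4* had means of 0.335 CPM in WT and 0.0187 CPM in HOMO. *Nkx2-1*, *Ppbp* and *Gp9* had 3 or fewer counts in every library. The part of other cell types in the levels of the PDGF genes was not tested.

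**Figure D4:**
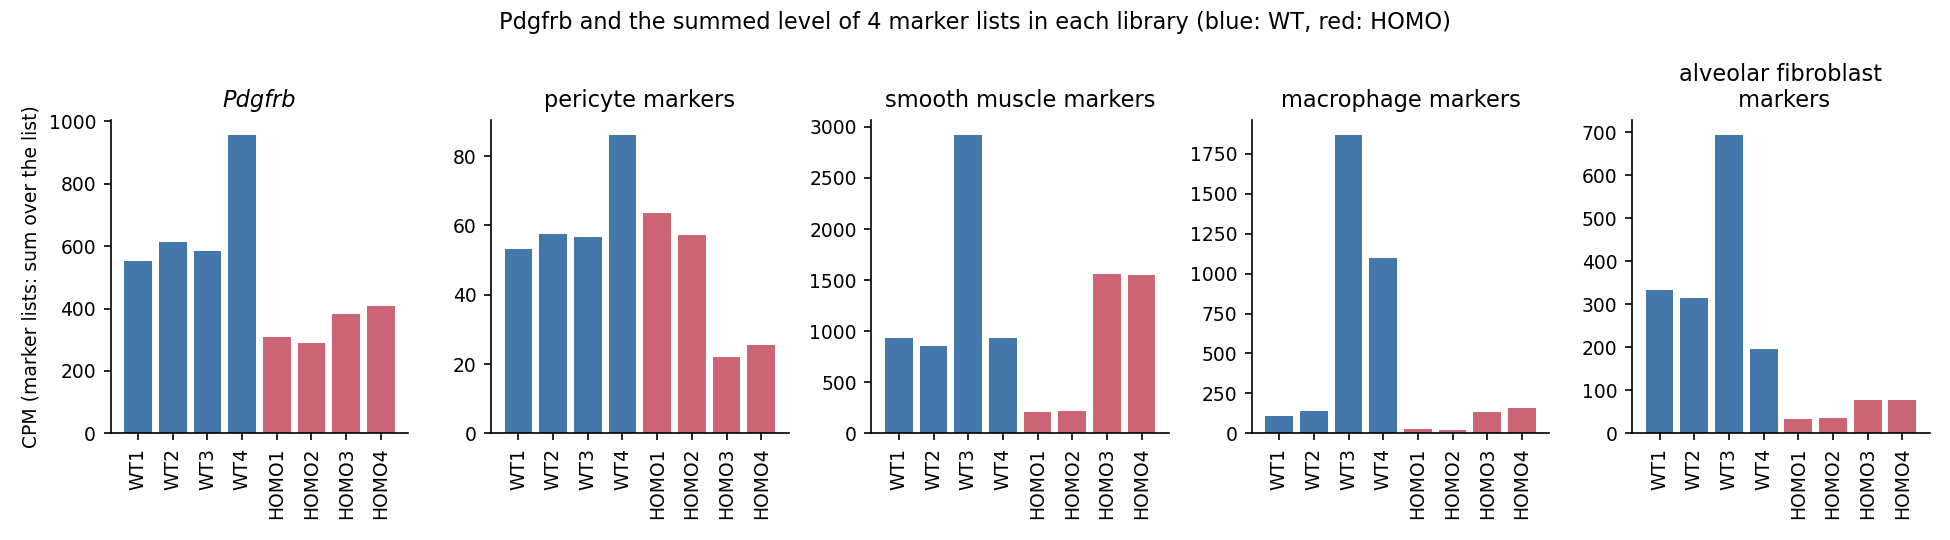
*Pdgfrb* and the summed levels of the pericyte, smooth muscle, macrophage and alveolar fibroblast markers in each library, in CPM. *Pdgfrb* is lower in all HOMO libraries, and the macrophage sum is high in WT3 and WT4. The pericyte sum is lowest in HOMO3 and HOMO4 and is mostly *Notch3* in all libraries except WT3 and WT4.

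Genes that act around the PDGF receptors were counted in 4 lists. Among those that process or bind PDGF ligands, 2 of 11 tested were called, both lower, and the list's median log2 fold change was −0.37. Of all genes tested, 6.18% were called lower and 12.1% in either direction. *Thbs1*, which encodes thrombospondin 1, a matrix protein that binds PDGF, had a log2 fold change of −2.83 (SE 0.43, edgeR adjusted p = 0.00707). None of the proteases in this list passed. *Furin*, which cuts the PDGF-A and PDGF-B precursors, was at −0.54 (SE 0.16, edgeR adjusted p = 0.0576) and did not overlap between genotypes, with 127 to 201 CPM in WT and 101 to 108 CPM in HOMO. *Plau*, which encodes urokinase, an activator of PDGF-D, was at −0.71 (SE 0.20, edgeR adjusted p = 0.0519), with 32.9 to 56.2 CPM in WT and 21.1 to 28.1 CPM in HOMO. *Plat*, which encodes the tissue plasminogen activator that activates PDGF-C, was at 0.19 (SE 0.27, edgeR adjusted p = 0.671). The co-receptor genes *Nrp1* and *Lrp1* were at −0.31 and −0.24 (edgeR adjusted p = 0.523 and 0.506).

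Of 23 receptor-proximal adaptors and effectors, all tested, 4 were called, all higher, with a list median of 0.09. Of all genes tested, 5.94% were called higher and 12.1% in either direction. *Gab1*, a docking protein that recruits PI3 kinase and SHP2 to activated receptors, rose from 42.1 ± 3.87 to 128 ± 19.6 CPM, a log2 fold change of 1.604 (SE 0.15, edgeR adjusted p = 0.00111). The other 3 were *Pik3cb* and *Pik3r2*, a catalytic and a regulatory subunit of PI3 kinase, at 0.89 and 0.61, and the transcription factor *Stat3* at 0.68 (edgeR adjusted p = 0.0194, 0.0308 and 0.0368). Of 12 phosphatases and attenuators tested, 2 were called, both higher, against the same shares of all genes, with a list median of −0.08. *Cblb*, a ubiquitin ligase that marks receptors for degradation, rose from 16.9 ± 4.11 to 52.1 ± 2.87 CPM (log2 fold change 1.63, SE 0.19, edgeR adjusted p = 0.00299), and *Socs3*, a cytokine signaling inhibitor, had a log2 fold change of 1.05 (SE 0.22, edgeR adjusted p = 0.0188).

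Of 9 transcripts that PDGF can induce, 1 was called, and the list median was 0.90. *Has2*, the hyaluronan synthase of fibroblasts, was at 4.39, 3.22, 0.344 and 1.32 CPM in WT1 to WT4 and at 70.2, 70.1, 24.5 and 22.6 CPM in HOMO1 to HOMO4. The genotypes were far apart and the close HOMO pairs differed from each other, and the log2 fold change was 4.34 (SE 0.75, edgeR adjusted p = 0.0103). The early response gene *Egr1*, chosen after its values were seen, was at 25.2 to 150 CPM in WT and 123 to 450 CPM in HOMO and did not pass (log2 fold change 1.73, SE 0.64, edgeR adjusted p = 0.103). It was at 130, 123, 450 and 376 CPM in HOMO1 to HOMO4. *Junb*, whose value was the list median, was at 93.3 to 154 CPM in WT and 148, 140, 323 and 305 CPM in HOMO1 to HOMO4. For *Egr1*, *Junb*, *Ier2*, *Fos* and *Myc*, also named after their values were seen, HOMO1 and HOMO2 lay inside the WT range. The list was not uniform, with 7 positive and 2 negative log2 fold changes. *Ccl2* was at 17.6 to 130 CPM in WT and 22.7 to 31.0 CPM in HOMO (−1.53, SE 0.49, edgeR adjusted p = 0.0714), and *Srf* was at −0.14. All genes together were called higher in 5.94% of cases and lower in 6.18%.

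**Figure D5:**
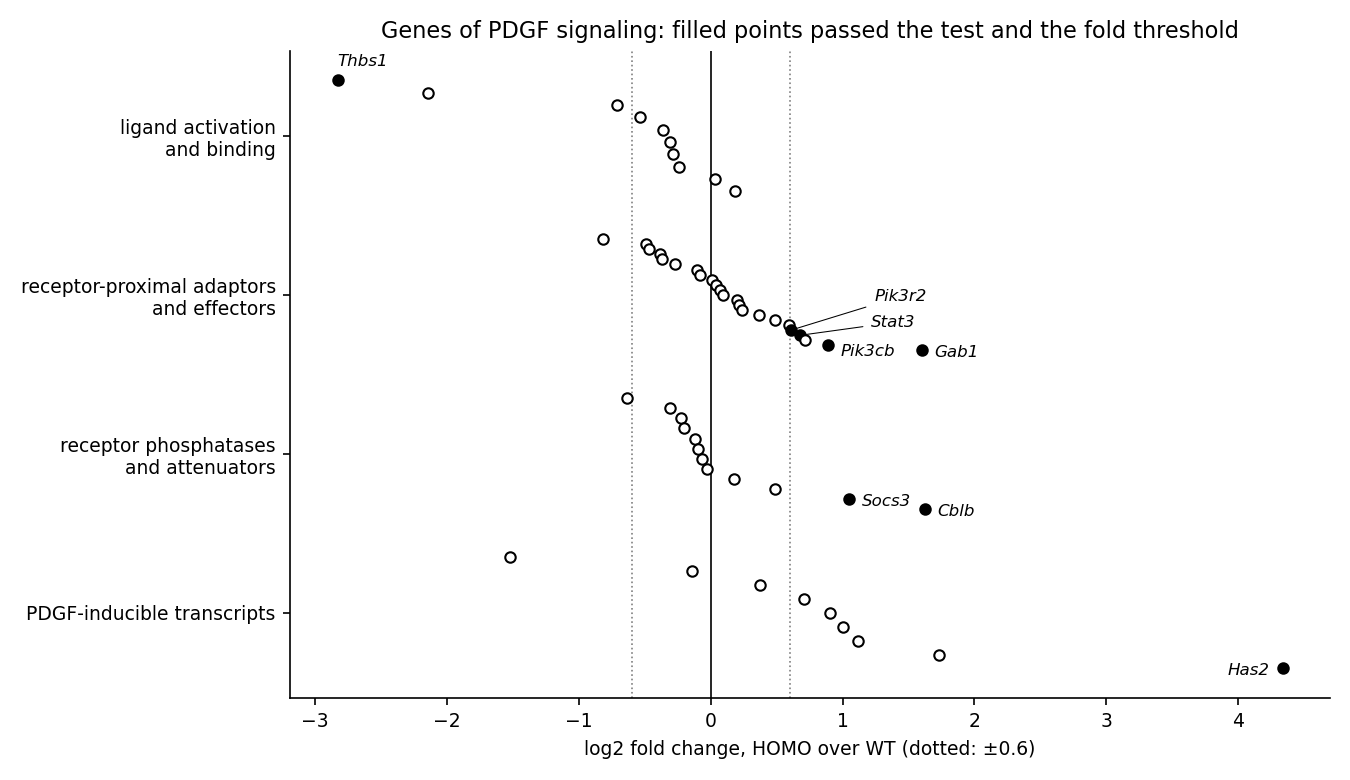
Log2 fold change, HOMO over WT, of the tested genes in the 4 lists of PDGF signaling, with 1 called gene of the first list left out, as filled points where called and with dotted lines at the DEG threshold of 0.6. *Thbs1* lies far on the lower side, and the called genes of the other 3 lists lie on the higher side.

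For each PDGF gene, the 3 genes with the most similar profile were found by Pearson correlation of log2 CPM over the 8 libraries, of which 6 form close pairs, as a description with no p. For *Pdgfrb* they were *Spsb1*, *Fhl1* and *Kdsr* (r = 0.995, 0.994 and 0.994), and for *Pdgfra* *Cers4*, *Pdzd2* and *Trp53i11* (0.996, 0.990 and 0.987). For *Pdgfrl* they were *Zfp934*, *Adamtsl1* and *Peli2* (0.983, 0.964 and 0.963). Among the ligands, *Pdgfa* was closest to *Spns1*, *Rspo2* and *Aup1* (0.989, 0.987 and 0.984), and *Pdgfb* to *B4galnt1*, *Mef2d* and *Lox* (0.987, 0.979 and 0.977). *Pdgfc* was closest to *Pdzd4*, *Six5* and *Irx2* (0.995, 0.990 and 0.989), and *Pdgfd*, for which 2 of the 3 are given, to *Leng9* and *Naxe* (0.988 and 0.987).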

How the data were processed

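The authors deposited raw gene counts of 8 libraries, made from poly(A) RNA with fastp, STAR alignment to mm10 and featureCounts, as their methods and the submitters' processing notes give. Tool versions, the annotation and the strand setting are not given in the sources used here. The table's name says that an outlier was taken out, with no reason given, and every per-sample column was used. Groups and replicate numbers came from the sample titles. Symbols of 53661 entries were matched to GENCODE M21 (GRCm38, the same build as mm10) for positions and exon lengths, and 0 of the 7 symbols stood on more than 1 entry.

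HOMO was compared with WT by edgeR's quasi-likelihood F test (edgeR 4.0.16, R 4.3.3) after filterByExpr and TMM normalization, with Benjamini-Hochberg adjustment over 14150 genes. The thresholds for a DEG were 0.05 for the adjusted p and 0.6 for the size of the log2 fold change. The script was tested on simulated data. CPM values used the TMM-scaled library sizes, with a prior count of 2 where they were log2-transformed. Lengths are the union of all annotated exons, so that genes with long minor isoforms appear lower per kb. The floor of 3 counts covers counting error only. Same-numbered libraries showed no shared deviation (r from −0.124 to 0.014), so the numbers were not used as pairs. Alternatives were RLE and upper-quartile factors, DESeq2 1.42.0, limma-voom with quality weights (limma 3.58.1), leaving low counts in, a minimum of 1 CPM in 4 libraries, robust dispersion, a replicate block, close pairs summed, no fold threshold, the chromosome median subtracted, and each library left out in turn. Figures were drawn in matplotlib 3.10.9 under Python 3.11.15.

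The 7 genes, the 4 lists of PDGF signaling and the 10 marker lists were chosen with earlier results of these data known. Named genes were the 7, up to 5 called genes a direction in each of the 4 lists, *Nrp1*, *Lrp1*, *Furin*, *Plat* and *Plau*, the 3 nearest profiles of each of the 7, and *Igfbp5*, of which 2 genes are not reported here. The markers named were chosen after their values were seen.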

Additional observations from a re-analysis of the deposited data

Results flagged for a closer look

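In 86 sets of 4 libraries of 1 genotype, 5 had a library whose gap to its nearest neighbour passed Dixon's 95% critical value for the gap over the whole range, where chance gives about 1 in 20. The sets are not independent, because the genes of like profile were picked by their correlation with the PDGF genes over these same libraries. *Pdgfa* was 6.23 log2 CPM in WT3 and 5.48 to 5.604 in the other WT libraries, a gap of 0.835 of the range. *Aup1*, a gene with a profile like that of *Pdgfa*, was 6.72 log2 CPM in WT3 and 6.29 to 6.36 in the others (0.842 of the range). The other 3 were high in WT4. *Lox*, near *Pdgfb* in profile, was 12.70 against 10.34 to 10.72 (0.839), and *Fhl1* and *Kdsr*, near *Pdgfrb*, were 10.22 against 7.37 to 7.55 (0.936) and 6.20 against 5.75 to 5.78 log2 CPM (0.930).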

How the results depend on the processing

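The fall of *Pdgfrb* and *Pdgfa* kept its direction under all 18 alternatives, and RLE and upper-quartile factors, DESeq2, robust dispersion, no filter and CPM above 1 left both called. Leaving out 1 library moved the log2 fold change of *Pdgfrb* from −1.05 to −0.75 (edgeR adjusted p = 0.0202 to 0.0929) and that of *Pdgfa* from −0.92 to −0.63 (0.0139 to 0.0951). The replicate block, used although the numbers do not pair the libraries, gave −0.81 for *Pdgfa* (edgeR adjusted p = 0.0969) and 947 DEGs, with 1 PDGF gene called. With the close pairs summed, which leaves 5 libraries, *Pdgfrb* was at −1.03 and *Pdgfa* at −0.87 (edgeR adjusted p = 0.373 and 0.376), 0 PDGF genes, 0 genes of each of the 4 lists and 0 DEGs were called, and 2057 genes had an unadjusted p under 0.05. Under limma-voom with quality weights *Pdgfb*, *Pdgfc* and *Pdgfrl* were called higher, at 0.80, 1.47 and 1.79 (limma adjusted p = 0.00532, 8.43e-05 and 3.63e-04), so that 5 PDGF genes and 3573 DEGs were called. With 1 library left out, *Pdgfb* ran from 0.12 to 1.02, *Pdgfc* from 0.17 to 1.15, *Pdgfrl* from 0.54 to 1.26, *Pdgfd* from −0.81 to 0.12 and *Pdgfra* from −0.10 to 0.44. *Pdgfd* was above 0 only without WT3 (0.12) and *Pdgfra* below 0 only without WT4 (−0.10), and the cause was not tested. The PDGF genes called ran from 0 (without HOMO1, HOMO2 or HOMO3) to 4 (without WT3), and the DEGs from 507 (without HOMO1) to 2192 (without WT3), against 2913 with DESeq2. In the ligand activation and binding list, 4 genes were called with DESeq2 and with limma-voom, and 1 to 3 with 1 library left out. For the adaptors these counts were 2 with no filter and 1 to 5 with 1 library left out, for the attenuators 4 with limma-voom and 1 to 4, and for the PDGF-inducible transcripts 3 with DESeq2 and with limma-voom and 1 to 2. Of all genes, 16.5% were called with DESeq2, 25.3% with limma-voom, 5.28% with no filter and 3.52% to 15% with 1 library left out. Of the 3 PDGF-inducible transcripts called with DESeq2, 2 were higher and 1 lower, and the same split held with limma-voom. No PDGF gene lay outside the filter, so the alternatives planned for such genes gave no value. The lowest gene, *Pdgfb*, had 33 to 215 counts, and what part depth had in the calls was not tested.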
